A study of Homo sapiens with 9 samples.

Results

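CDH1, CDH2, CDH3, VIM, FN1 and EPCAM are the genes most often read as markers of the epithelial to mesenchymal transition, and they were followed in every library of a tongue carcinoma line given transforming growth factor beta 1 (TGF-β1). The 6 genes were taken by symbol in GENCODE release 29 from the 58233 genes in the files, and all 6 had enough counts to be tested, among 15440 tested genes. UPCI-SCC-040 is an established human oral squamous cell carcinoma line. Total RNA was sequenced from 3 conditions with 3 libraries each: untreated cells, whose titles carry 0 h, cells given TGF-β1 at 5 ng/ml for 48 h, and cells given the same dose for 72 h. Each condition has 1 library from passage 12, 1 from passage 13 and 1 from passage 8, labelled replicates 1, 2 and 3. The growth medium held fetal bovine serum and antibiotics, and both were left out while the factor was given. Whether the untreated cells also went without them is not stated, so effects of the factor, of the missing serum and of the hours in culture cannot be told apart. Nothing but the passage marks the libraries as separate cultures, so p-values measure the spread between these samples only. In bulk RNA, fewer cells expressing a gene and less RNA per cell cannot be told apart.

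Classical cadherins are calcium-dependent adhesion proteins that join neighbouring cells and bind catenins at the membrane. E-cadherin, the product of CDH1, holds epithelial sheets together, P-cadherin (CDH3) is a cadherin of basal squamous cells, and N-cadherin (CDH2) is typical of mesenchymal and neural cells. In the textbook transition, E-cadherin is replaced by N-cadherin while vimentin (VIM), a type III intermediate filament protein, and fibronectin (FN1), a secreted matrix glycoprotein, are gained and EPCAM, an epithelial adhesion glycoprotein, is lost.

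Library totals ran from 12544690 to 20438727 counts. All 10 squamous epithelial markers were tested, and their summed level was 11900 to 21200 CPM (counts per 1e6 counts of the library, scaled between libraries by the TMM method) in controls and 17400 to 34000 CPM in treated libraries. At 48 h 5 of them passed as higher and 2 as lower, the simple epithelial keratins KRT8 and KRT18, against 14.9% and 16.0% of all genes. At 72 h 2 passed as higher and 1, KRT8, as lower, against 20.4% and 19.4%. Summed endothelial, leukocyte and melanocyte markers reached at most 2.66, 0.287 and 3.24 CPM in any library. Fibroblast markers other than COL1A2 were nearly absent, with 1 count of DCN, 5 of LUM, 6 of PDGFRA, 22 of PDGFRB and 2 of THY1 over all 9 libraries. The 72 h library of passage 8 stood apart in MALAT1, a nuclear noncoding RNA, which took 1.54% of its counts against 0.247% to 0.507% elsewhere. Direct TGF-β response genes were higher in treated cells, 9 of 10 at both times against 14.9% of all tested genes at 48 h and 20.4% at 72 h. The list was chosen with earlier results of these data known, so its count is not independent support. CTGF, the gene that did not pass, had log2 fold changes of 0.62 and -0.22 (edgeR adjusted p = 0.392 and 0.758). Among those that passed was CDKN1A, the p21 cell cycle inhibitor (log2 fold change 2.07 ± 0.18 at 48 h and 2.14 ± 0.18 at 72 h, approximate SE). LTBP2 and BHLHE40, a latent TGF-β binding protein and a transcriptional repressor, had log2 fold changes of 1.85 and 2.08 at 48 h.

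The cadherin genes are distinct enough for reads to be told apart. The longest identical run between their longest coding sequences in GENCODE release 29 (GRCh38) was shorter than a usual read, as the sequences below show. Positions count from the first base of the start codon.
CDH1 (from 1387) and CDH3 (from 1186), 17 bases: ttggattttgaggccaa
CDH1 (from 2364) and CDH2 (from 2355), 18 bases: tgacttgagccagctgca
CDH2 (from 2344) and CDH3 (from 2128), 15 bases: gaccaggactatgac
Of 50-base words in the members' transcripts, 4.14% for CDH1, 1.84% for CDH2, 11.4% for CDH3, 20.7% for VIM, 0.315% for FN1 and 1.65% for EPCAM also occurred in transcripts of another gene on either strand. For VIM these were mostly words of the antisense genes VIM-AS1 and AL133415.1, and the library kit in the labels does not mark strand, so reads of a gene and its antisense partner cannot be told apart. The largest number of counts in an overlapping gene was 434 for VIM-AS1 over all 9 libraries, against 44693 for VIM. VIM-AS1 rose at 48 h (1.92 ± 0.345 to 3.71 ± 0.862 CPM, log2 fold change 0.94 ± 0.29, edgeR adjusted p = 0.0344) and had an adjusted p of 0.0603 at 72 h, where it rose with the passage block (0.75, adjusted p = 0.0433). Its 48 h call was lost without any 1 control or the 48 h library of passage 13 or 8 (0.0567 to 0.126).

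Before treatment the line already carried VIM transcripts at a level like that of the epithelial genes. Per kilobase of the longest coding transcript, controls had 102 ± 14.2 CPM of EPCAM, 99.1 ± 9.89 of CDH3, 95.7 ± 1.87 of VIM and 60.4 ± 12.5 of CDH1 (SD, n = 3). The first 3 overlapped, and CDH1, at 49.2 to 73.9, lay below all of them. CDH2 and FN1 were far lower, at 3.33 ± 1.88 and 2.72 ± 2.88 CPM per kilobase, and overlapped each other. VIM's place in this order depended on the length used: per kilobase of all annotated exons, VIM was at 39.6, CDH1 at 47.8, EPCAM at 70.0 and CDH3 at 78.3.

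**Figure D1:**
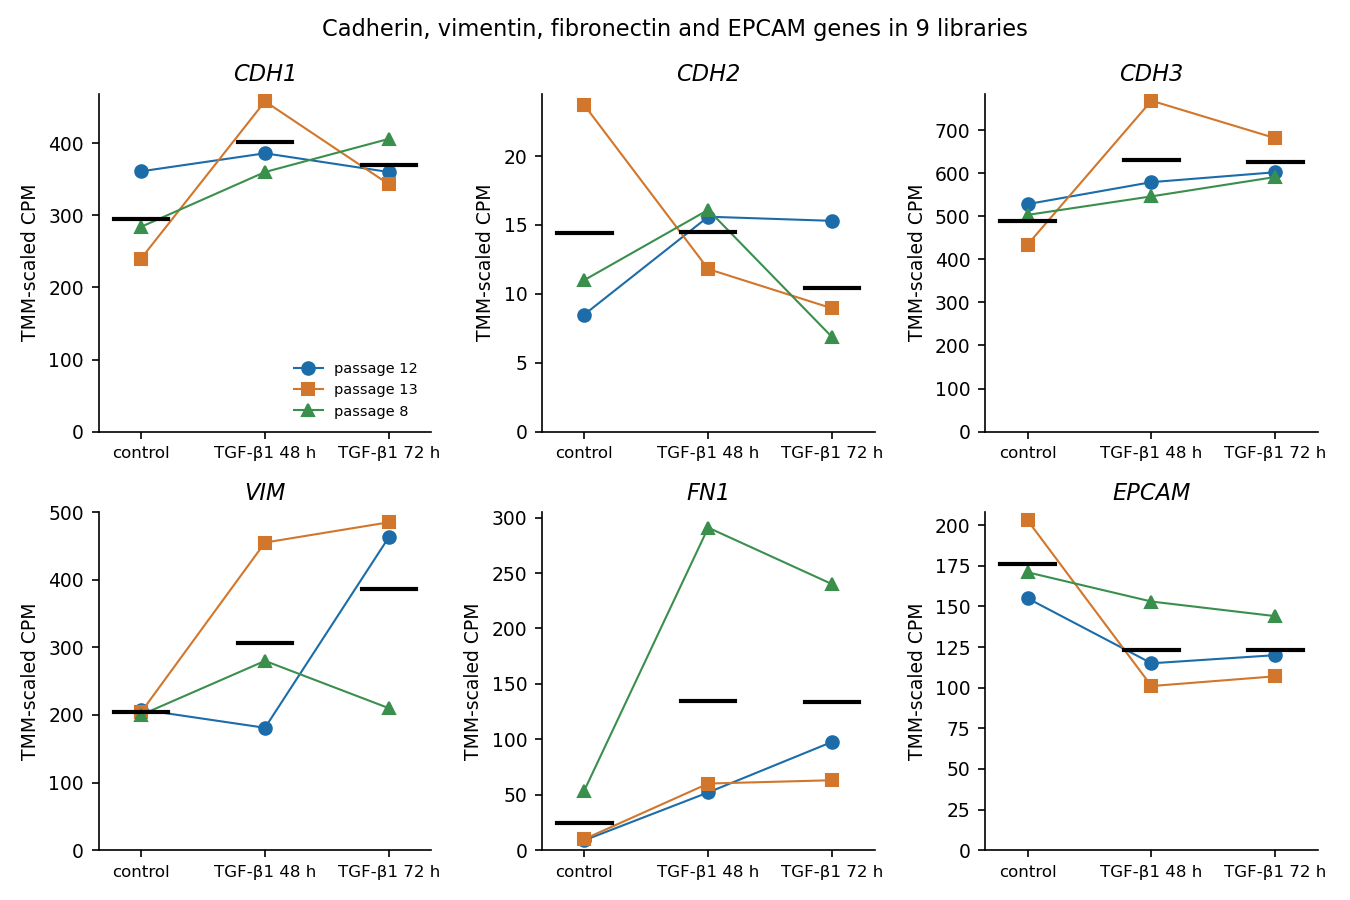
TMM-scaled CPM (y axes, each from 0) of the 6 genes in untreated cells and after 48 h and 72 h of TGF-β1 (x axis); points are libraries, lines join libraries of 1 passage and black bars are group means of 3. FN1 is above its own passage's control in every treated library and highest in passage 8, EPCAM is below it in all 6, and CDH2 moves in different directions in different passages.

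In edgeR's quasi-likelihood test, with p adjusted over all tested genes by Benjamini and Hochberg's method, 0 of the 6 genes differed from control at 48 h at the 0.05 threshold, whereas 31.0% of all tested genes did. At an unadjusted p under 0.05 there were 3 (CDH1, FN1 and EPCAM), against 43.3% of all genes. DESeq2, whose share over all genes is not given here, called the same number, 3. At 72 h 1 of 6 passed, EPCAM, against 39.8% of all genes, and 3 (VIM, FN1 and EPCAM) had an unadjusted p under 0.05, against 49.7%. The treated libraries lay wholly outside the controls for 2 of 6 genes at 48 h (CDH3 and EPCAM) and for 4 of 6 at 72 h (CDH3, VIM, FN1 and EPCAM), against 53.7% and 55.1% of all genes. By direction, 1 lay above and 1 below the controls at 48 h, against 25.6% and 28.1% of all genes, and 3 above and 1 below at 72 h, against 27.3% and 27.7%. The counts of adjusted calls were below the share over all genes at both times, and the other shares lay on either side of it. With passage added to the model as a block, FN1 and EPCAM passed at both times, when 33.1% of all genes at 48 h and 41.9% at 72 h did.

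The mean level of E-cadherin transcripts was above the control at both times, and the differences did not pass the test. CDH1 (ENSG00000039068, chromosome 16, 68737225 to 68835548, plus strand, GRCh38) was at 361, 240 and 284 CPM in the controls of passages 12, 13 and 8, at 386, 458 and 360 CPM after 48 h, and at 360, 343 and 406 CPM after 72 h. The lowest value of all 9 libraries was the passage 13 control, and the treated range overlapped the controls only through the passage 12 control. The log2 fold change was 0.44 ± 0.18 at 48 h (95% interval 0.05 to 0.84, edgeR adjusted p = 0.0802) and 0.32 ± 0.18 at 72 h (-0.07 to 0.72, adjusted p = 0.165). With the passage block the 72 h interval was -0.08 to 0.75. These intervals rest on 3 libraries a group and do not exclude a fall in other cultures. CDH1 passed at 48 h as a rise in DESeq2 (adjusted p = 0.0466), with only the 2 groups fitted (0.0456) and without the passage 12 control (0.0477). Within passages, the change at 48 h was 0.10 in passage 12, 0.93 in passage 13 and 0.34 in passage 8 on the log2 scale.

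P-cadherin transcripts were the most abundant of the 3 cadherins, and their pattern over the libraries was the closest to that of CDH1 among the 6 genes. CDH3 (ENSG00000062038, chromosome 16, 68636189 to 68722616, plus strand) lies next to CDH1 on the chromosome. It was at 528, 434 and 503 CPM in controls of passages 12, 13 and 8, at 579, 768 and 546 CPM at 48 h and at 602, 681 and 591 CPM at 72 h. All 6 treated libraries were above all 3 controls, by a narrow margin in passages 12 and 8. The log2 fold change was 0.37 ± 0.17 at 48 h (95% interval -0.01 to 0.75, edgeR adjusted p = 0.122) and 0.35 ± 0.17 at 72 h (-0.02 to 0.73, adjusted p = 0.119). Centred on their means over the 9 libraries, log2 CPM of CDH1 and CDH3 differed by a root mean square of 0.15, the smallest of the 15 pairs among the 6 genes. That of CDH1 and FN1 was 1.52.

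N-cadherin transcripts were scarce in all libraries, with 111 to 442 counts, and differed from control in opposite directions in different passages. CDH2 (ENSG00000170558, chromosome 18, 27950966 to 28177446, minus strand) was at 8.5, 23.7 and 11.0 CPM in the controls of passages 12, 13 and 8, at 15.6, 11.8 and 16.1 CPM at 48 h and at 15.3, 8.95 and 6.86 CPM at 72 h. The passage 13 control was the highest library, and groups overlapped throughout. The log2 fold change was 0.00 ± 0.40 at 48 h (95% interval -0.91 to 0.91, edgeR adjusted p = 0.996) and -0.48 ± 0.41 at 72 h (-1.39 to 0.43, adjusted p = 0.368). The 48 h interval is wide on both sides. At 72 h the change was 0.84 in passage 12, -1.40 in passage 13 and -0.68 in passage 8, and the value without the passage 13 control was 0.08.

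The ratio of CDH2 to CDH1 within a library is the RNA readout of a switch from E- to N-cadherin, and scaling between libraries cancels in it. The log2 ratio of counts was -5.40, -3.34 and -4.68 in controls of passages 12, 13 and 8, -4.63, -5.27 and -4.48 at 48 h and -4.55, -5.25 and -5.87 at 72 h. The highest ratio was in an untreated library. Both treated groups together differed from controls by -0.54 (6 libraries against 3, exact two-sided permutation p = 0.405, adjusted over 12 tests 0.857, smallest possible p 0.0119). CDH3 to CDH1 differed by -0.04 (exact permutation p = 0.702, adjusted 0.937) and CDH2 to CDH3 by -0.50 (exact permutation p = 0.369, adjusted 0.857). These tests took the 48 h and 72 h libraries of a passage as separate units and left out the pairing by passage. Paired by passage, exact sign flips on CDH2 to CDH1 gave p = 0.75, and 0.25 is the smallest possible. Tests of 3 against 3 libraries cannot go below 0.10, and none of the 9 such ratio tests had an adjusted p under 0.857. Without the passage 13 control, the difference in CDH2 to CDH1 between treated libraries and controls turned to 0.03. Per kilobase, CDH2 made up 2.16% ± 1.48 of the 3 cadherins' transcripts in controls, 1.62% ± 0.471 at 48 h and 1.18% ± 0.525 at 72 h (SD, n = 3). CDH1 made up 36.8% ± 3.12, 38.6% ± 1.26 and 37.0% ± 3.63, and CDH3 the rest.

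**Figure D2:**
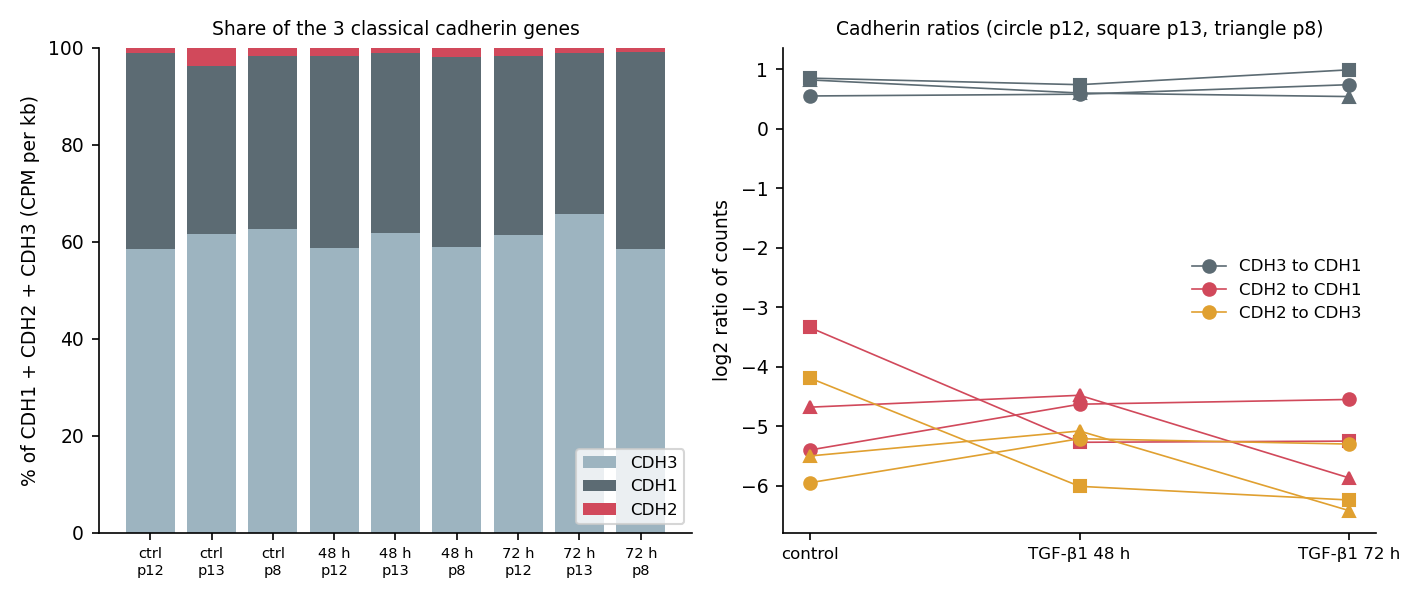
Left, share of each classical cadherin gene in the summed CPM per kilobase of CDH1, CDH2 and CDH3 (y axis, percent) in each library (x axis, group and passage p12, p13 or p8). Right, log2 ratios of counts (y axis) by group, with lines joining libraries of 1 passage. CDH2 takes 0.774% to 3.84% of the total and its highest share is in the passage 13 control.

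Vimentin transcripts were higher in some treated libraries and at control level in others. VIM (ENSG00000026025, chromosome 10, 17228259 to 17237593, plus strand) was at 208, 204 and 200 CPM in controls of passages 12, 13 and 8, at 181, 455 and 280 CPM at 48 h and at 463, 485 and 210 CPM at 72 h. The controls differed by a few CPM only, whereas the treated libraries ranged from just below the controls to far above them. The high libraries were passage 13 at both times and passage 12 at 72 h alone, and passage 8 at 72 h was 1.05-fold its control. The log2 fold change was 0.58 ± 0.37 at 48 h (95% interval -0.25 to 1.41, edgeR adjusted p = 0.258) and 0.92 ± 0.37 at 72 h (0.08 to 1.75, adjusted p = 0.0757). At 72 h VIM passed as a rise in DESeq2 (adjusted p = 0.0387), with only the 2 groups fitted (0.0465), without the 48 h library of passage 13 (0.0437) and without the 72 h library of passage 8 (log2 fold change 1.22, adjusted p = 0.0129), the library with the high MALAT1 share. The part of RNA quality in this result was not tested.

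Fibronectin transcripts had the largest fold change of the 6 genes and the largest difference between passages. FN1 (ENSG00000115414, chromosome 2, 215360440 to 215436172, minus strand) was at 8.92, 10.0 and 53.8 CPM in controls of passages 12, 13 and 8, at 52.1, 60.1 and 291 CPM at 48 h and at 97.7, 63.1 and 240 CPM at 72 h. The passage 8 library was the highest in each group, and its control was as high as the 48 h library of passage 12. Within passages FN1 was 5.80-, 5.96- and 5.41-fold its control at 48 h and 10.9-, 6.26- and 4.46-fold at 72 h, in passages 12, 13 and 8. Fitted on groups alone, the log2 fold change was 2.48 ± 0.97 at 48 h (95% interval 0.26 to 4.70, edgeR adjusted p = 0.0852) and 2.47 ± 0.97 at 72 h (0.25 to 4.69, adjusted p = 0.0737). With the passage block FN1 rose, by 2.51 ± 0.25 at 48 h (1.95 to 3.07, adjusted p = 0.000492) and 2.77 ± 0.25 at 72 h (2.20 to 3.34, adjusted p = 0.000247). The call under the block held without any 1 of the 9 libraries, with adjusted p of 5.76e-05 to 0.00572 at 48 h and 7.85e-05 to 0.00274 at 72 h. FN1 also passed without the passage 8 control (log2 fold change 3.82 and 3.81, adjusted p = 0.0391 and 0.0289), without passage 8 in all groups (2.56 and 3.09, adjusted p = 0.0015 and 0.00118) and in DESeq2 (adjusted p = 0.0426 and 0.0444).

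The difference in FN1 between passages was tested in the model of group and passage. FN1 was higher in passage 8 than in passages 12 and 13 by 2.16 ± 0.19 on the log2 scale (95% interval 1.72 to 2.61, edgeR adjusted p = 0.0116), or 4.48-fold, and was 1 of 10 genes to pass among 15440 (0.0648%). The call was lost without the 48 h library of passage 13 (adjusted p = 0.0635), the 72 h library of passage 13 (0.133) or the 48 h library of passage 8 (0.345), with values of 2.20, 2.13 and 2.05. The other 5 genes had values between -0.42 (VIM) and 0.27 (EPCAM), with adjusted p of 0.413 or more. Each passage is 1 set of 3 libraries, so this comparison is of these cultures rather than of passage number. The size of the treated change in passage 8 differed from that in passages 12 and 13 by -0.54 ± 0.43 for FN1 (95% interval -1.53 to 0.45, adjusted p = 0.994). Of the 6 genes 0 passed in edgeR, as did 0 of all 15440 tested genes (0.00%). At an unadjusted p under 0.05 there were 0 of the 6, against 5.01% of all genes. DESeq2 called 0 of the 6 and 26 genes in all. In this interaction model 48 h and 72 h were 1 treated level, and the spread came only from 48 h against 72 h within passages. Its SE, interval and p therefore do not measure spread between replicate cultures. COL1A2, a collagen chain made by fibroblasts, was like FN1 highest in passage 8 in each group. It was at 0.181, 0.483 and 0.932 CPM in controls of passages 12, 13 and 8. It was at 2.49, 0.735 and 17.7 CPM at 48 h and at 2.48, 1.77 and 20.8 CPM at 72 h. In passage 13 at 48 h it was little above its control, where FN1 was 5.96-fold its own. Outside passage 8 its level was low, and its likeness to FN1 was not measured. With the passage block COL1A2 rose by 3.15 and 3.50 on the log2 scale (adjusted p = 0.00643 and 0.003), and on groups alone it had adjusted p of 0.0911 and 0.0621. The whole fibroblast list of 6 genes summed to 0.181 to 1.00 CPM in controls, 0.858 to 18.2 CPM at 48 h and 1.99 to 21.8 CPM at 72 h, nearly all of it COL1A2, with DCN, LUM, PDGFRA and THY1 at 6 counts or fewer over all libraries, and the part of such cells in the FN1 values was not tested.

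The stretch before the FN1 start is printed because FN1 is the member that moved most, and VIM's because it is the other mesenchymal member with a treated mean above the controls. Both are from RefSeq (GRCh38.p14), 5′ to 3′, and stop before any annotated start. Capitals mark matches on either strand to 6 words that were searched: TGACGTCA (the cyclic AMP response element, CRE), the CCAAT box, the E-box word CACCTG that SNAI and ZEB factors bind, GTCTAGAC (a SMAD-binding word), the AP-1 word of TGA and then TCA with any base between them, and the core promoter word TATAA. None of these words overlaps another in the 2 stretches.
FN1, chr2:215436173-215436318, minus strand: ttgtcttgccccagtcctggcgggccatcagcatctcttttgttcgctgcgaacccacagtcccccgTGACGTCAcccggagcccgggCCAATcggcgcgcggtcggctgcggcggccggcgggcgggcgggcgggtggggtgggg
VIM, chr10:17227991-17228240, plus strand: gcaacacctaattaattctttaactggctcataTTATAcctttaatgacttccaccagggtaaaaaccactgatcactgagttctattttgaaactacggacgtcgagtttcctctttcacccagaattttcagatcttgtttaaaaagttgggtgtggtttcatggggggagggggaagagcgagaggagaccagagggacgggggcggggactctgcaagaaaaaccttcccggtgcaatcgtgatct
The CRE word lay at -183 to -176 from the RefSeq start of FN1, and 1.65% of 35116 promoters hold it in the 250 bases before their start. CCAAT, at -162 to -158, is held by 32.0% of promoters. CACCTG, held by 17.5%, and GTCTAGAC, held by 0.182%, were in neither the FN1 nor the VIM window, and not in those of CDH2. TATAA, held by 18.9%, lay at -217 to -213 of VIM on the opposite strand. FN1 also has it at -28 to -24, beyond the printed stretch, and the AP-1 word, held by 6.57%, was in neither window. The promoter table was matched for CDH2, FN1 and VIM, 3 of the 6 genes.

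EPCAM transcripts were lower in treated cells of every passage. EPCAM (ENSG00000119888, chromosome 2, 47345158 to 47387601, plus strand) was at 155, 203 and 171 CPM in controls of passages 12, 13 and 8, at 115, 101 and 153 CPM at 48 h and at 120, 107 and 144 CPM at 72 h. All 6 treated libraries were below the lowest control, the 48 h library of passage 8 by only a small margin. The log2 fold change was -0.52 ± 0.18 at 48 h (95% interval -0.93 to -0.11, edgeR adjusted p = 0.0556), and EPCAM fell by 0.51 ± 0.18 at 72 h (adjusted p = 0.0489), or to 0.700 of its control level. With the passage block it passed at both times, at -0.54 ± 0.17 and -0.53 ± 0.17 (adjusted p = 0.0365 and 0.0327), a call that held in 4 of 9 omissions of 1 library at 48 h and in 3 of 9 at 72 h (adjusted p up to 0.179 and 0.176). The 72 h call is close to the threshold and was lost without the control of passage 12, 13 or 8, the 48 h or 72 h library of passage 12 or the 72 h library of passage 13 (log2 fold change -0.60 to -0.41, adjusted p = 0.0595 to 0.167), and with upper-quartile scaling (-0.46, adjusted p = 0.0789). Without passage 13 in all groups it was -0.31 (adjusted p = 0.285). Within passages EPCAM was 0.774-, 0.526- and 0.839-fold its control at 72 h, lowest in passage 13.

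**Figure D3:**
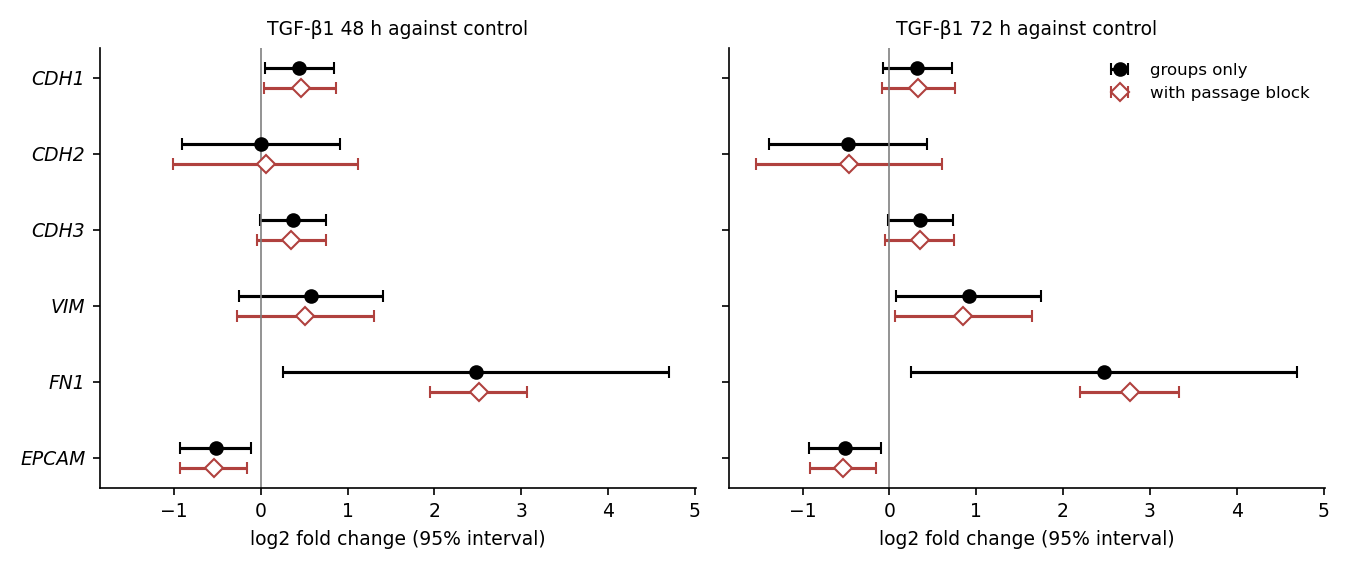
Log2 fold change (x axis) of the 6 genes at 48 h and 72 h against control, with 95% intervals, fitted on groups alone (filled circles) and with a passage block (open diamonds). The block narrows the interval of FN1 from 0.26 to 4.70 down to 1.95 to 3.07 at 48 h and leaves the others about as wide.

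Between 48 h and 72 h, 0 of the 6 genes passed in edgeR, with 0 at an unadjusted p under 0.05 and 0 in DESeq2, and 0.00% of all tested genes passed. The groups overlapped for all 6, whereas 7.07% of all genes lay wholly higher and 5.17% wholly lower at 72 h. Within passages CDH2 was lower at 72 h than at 48 h in all 3, by -0.03, -0.40 and -1.22 in passages 12, 13 and 8 on the log2 scale (edgeR adjusted p with the block 0.703). The log2 ratio of CDH2 to CDH3 was also lower in all 3, by -0.55 on average (exact sign flips p = 0.25, the smallest possible, adjusted 1). Log2 differences ran from -0.48 for CDH2 (95% interval -1.40 to 0.43) to 0.34 for VIM (-0.49 to 1.17). The interval of CDH3 was -0.39 to 0.36 and that of EPCAM -0.40 to 0.42. Over all genes 8.95% had an unadjusted p under 0.05.

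Partners of the 6 proteins were followed in lists grouped by function. The lists were chosen with earlier results of these data known, so their counts are not independent support. Counts of these lists stand beside the shares of all genes given above for each time and direction, and medians of all genes of 0.00 and 0.03.

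Among 19 other genes of the wider cadherin family, some of them outside the classical and type II groups, 5 had enough counts to be tested. Of these, 2 were higher at both times, against 14.9% of all genes at 48 h and 20.4% at 72 h (list median 0.68 and 0.38). CDH13, T-cadherin, which has no cytoplasmic tail and is anchored by a lipid, rose from 89.4 ± 11.2 CPM to 243 ± 49.3 at 48 h and 276 ± 50.1 at 72 h (log2 fold change 1.44 ± 0.19 and 1.63 ± 0.19, edgeR adjusted p = 0.00122 and 0.000529). CDH26 rose by 1.36 ± 0.34 and 1.40 ± 0.33 from 1.27 ± 0.587 CPM (adjusted p = 0.0144 and 0.00916), and lost its 48 h call without the control of passage 13 or passage 8 (0.0588 and 0.0566). CDH24 was at 18.3 ± 0.489, 20.2 ± 1.68 and 19.8 ± 3.96 CPM. CDH11, a mesenchymal cadherin, was at 1.52 ± 1.25, 2.41 ± 1.47 and 1.80 ± 0.532 CPM.

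JUP and NECTIN2 were the genes for catenins and other adherens junction partners that passed the test on groups alone. Of 10 tested, 1 was higher at 48 h and 1 at 72 h, against 14.9% and 20.4% of all genes. At both times 0 were lower, against 16.0% and 19.4% (list median 0.13 and -0.01). Treated libraries lay wholly outside the controls for 4 of the 10 at 48 h and 3 at 72 h, against 53.7% and 55.1% of all genes. With so few genes, these counts are no result about the list. JUP, plakoglobin, which links cadherins to the cytoskeleton, rose at 48 h by 0.68 ± 0.21 (edgeR adjusted p = 0.0332) and had an adjusted p of 0.0603 at 72 h. At 72 h it passed with upper-quartile scaling, in DESeq2, without a filter on low counts, with the 2 groups alone and without the 48 h or the 72 h library of passage 8 (0.0104 to 0.0492). The 48 h call was lost without any 1 control, the 48 h library of passage 12 or that of passage 13 (0.0635 to 0.132). NECTIN2, an adhesion receptor, rose at 72 h by 0.70 ± 0.14 (adjusted p = 0.00491). The β-catenin gene CTNNB1 was at 493 ± 32.6, 596 ± 45.5 and 496 ± 60.1 CPM, and the α-catenin gene CTNNA1 at 599 ± 22.7, 752 ± 47.0 and 642 ± 58.7 CPM. These did not pass, except CTNNA1 at 48 h in DESeq2, with upper-quartile scaling, with the 2 groups alone and without the 72 h library of passage 8 (adjusted p = 0.0337 to 0.0484). VCL, the actin linker vinculin, had a log2 fold change of -0.30 ± 0.15 at 72 h (adjusted p = 0.145).

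Enzymes that cut cadherins and EPCAM were higher in part. Of 9, 3 were higher at 48 h and 6 at 72 h, against 14.9% and 20.4% of all genes. At both times 0 were lower, against 16.0% and 19.4% (list median 0.33 and 0.60). FURIN, which matures cadherin precursors, rose by 0.65 ± 0.16 and 0.80 ± 0.16 (edgeR adjusted p = 0.0128 and 0.00404), with the 48 h call lost without the passage 12 control (0.0539). NCSTN, a γ-secretase subunit, rose by 0.58 ± 0.13 at 48 h and 0.79 ± 0.13 at 72 h (adjusted p = 0.00821 and 0.0015). ADAM17, the sheddase of EPCAM, rose at 72 h by 0.60 ± 0.17 (adjusted p = 0.0194), and lost that call without the control of passage 13 or 8 (0.0728 and 0.0611). ADAM10, the sheddase of E-cadherin, was at 267 ± 7.08, 333 ± 16.5 and 326 ± 27.7 CPM (adjusted p = 0.0735 and 0.0841). It passed as higher at 48 h with upper-quartile scaling, in DESeq2, with the 2 groups alone and without the 72 h library of passage 8 (0.0238 to 0.0487), and at 72 h with upper-quartile scaling (0.0459). In the list 3 were higher at 72 h without the passage 8 control, and 5 at 48 h without the 72 h library of passage 8. Calls over all genes at 48 h also rose without that 72 h library, from 4779 to 6289. The number over all genes at 72 h without the passage 8 control is not given here, so these counts are no result about the list.

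Among other intermediate filament genes and vimentin partners, SYNM was the only one to pass on groups alone, at 72 h. Of 10 genes 4 were tested. At 48 h 0 passed, against 31.0% of all genes (DESeq2 also called 0 and 1, SYNM, was at an unadjusted p under 0.05, against 43.3%). At 72 h 1 was lower, against 19.4% (list median 0.36 and 0.32). SYNM, synemin, a partner of vimentin, fell from 26.5 ± 2.36 to 15.7 ± 2.69 CPM at 72 h (-0.75 ± 0.16, edgeR adjusted p = 0.00512). At 48 h SYNM passed as lower with a filter of 1 CPM (0.0463), with the 2 groups alone (0.0264) and without any 1 of the 72 h libraries (0.0375 to 0.0437). NEFL was at 39.0 ± 16.2, 69.1 ± 37.7 and 81.7 ± 80.2 CPM. PLEC, the linker plectin, was at 2980 ± 102, 4490 ± 1410 and 3810 ± 1300 CPM (adjusted p = 0.166 and 0.372), and passed as higher at 48 h without a filter on low counts (0.00817) and without passage 8 (0.0359). DES had 0 counts.

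Several fibronectin receptor genes rose. Of 11, 7 were tested, and 5 were higher at 48 h and 4 at 72 h, against 14.9% and 20.4% of all genes. At both times 0 were lower, against 16.0% and 19.4% (list median 1.28 and 1.71). ITGB6, the β6 integrin subunit of squamous epithelium, rose from 74.0 ± 13.6 to 465 ± 222 and 434 ± 313 CPM (2.65 ± 0.54 and 2.55 ± 0.54, edgeR adjusted p = 0.00835 and 0.00694). ITGAV, its αv partner, rose by 2.21 ± 0.61 and 2.19 ± 0.61 (adjusted p = 0.0253 and 0.0209) and ITGB5 by 1.28 ± 0.23 and 1.72 ± 0.23. ITGA5, which pairs with β1 as the main fibronectin receptor, rose by 0.96 ± 0.30 and 1.71 ± 0.30 (adjusted p = 0.0358 and 0.00283). ITGB1, the β1 subunit, had log2 fold changes of 0.70 ± 0.29 and 0.69 ± 0.29 and did not pass on groups alone (adjusted p = 0.0948 and 0.0869). As with FN1, passage 8 held the highest ITGAV values, with 471, 3350 and 3980 CPM at 0, 48 and 72 h against 434, 1730 and 1070 CPM in passage 12 and 416, 1040 and 968 CPM in passage 13. Unlike those of FN1, the ITGAV controls lay close together. ITGAV lost its 48 h call without any 1 control or the 48 h library of passage 12 or 8 (0.0543 to 0.0865), and its 72 h call without any 1 control (0.0599 to 0.0721). Without a filter on low counts both calls were lost (0.113 and 0.102). ITGA5 lost its 48 h call without any 1 control or the 48 h library of passage 13 or 8 (0.0501 to 0.119). The 48 h count was 2 without the control of passage 12 or 13 or the 48 h library of passage 8, and 3 without the passage 8 control or the 48 h library of passage 12. Calls over all genes at 48 h fell too, from 4779 to 2860, 2631 and 2991 without the controls of passages 12, 13 and 8. They were 2837 without the 48 h library of passage 12, and the number without that of passage 8 is not given here.

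Most of the called genes for EPCAM's partners were higher, unlike EPCAM. Of 9 listed, 8 were tested. At 48 h 4 were higher and 1 lower, against 14.9% and 16.0% of all genes. At 72 h 5 were higher and 0 lower, against 20.4% and 19.4% (list median 0.56 and 0.60). CD9, a tetraspanin, rose by 1.16 ± 0.18 and 1.47 ± 0.18 (edgeR adjusted p = 0.00204 and 0.000565). FHL2, a cytoplasmic partner of EPCAM's cleaved tail, rose by 0.57 and 0.37 (adjusted p = 0.0086 and 0.0362), and its 72 h call was lost with the passage block (0.0522), in DESeq2 (0.0558), without a filter on low counts (0.104), with the 2 groups alone (0.0523) and without any 1 control, the 48 h library of passage 12 or the 72 h library of passage 12 or 13 (0.0519 to 0.147). CLDN7, a claudin that binds EPCAM, fell at 48 h from 9.65 ± 1.06 to 3.96 ± 0.674 CPM (-1.28 ± 0.24, adjusted p = 0.0049) and was at 7.14 ± 1.90 CPM at 72 h (adjusted p = 0.168). The count of higher genes was 2 at 48 h without any 1 control or the 48 h library of passage 12, and 3 at 72 h without any 1 control. Calls over all genes at 48 h fell too, from 4779 to between 2631 and 2991 without 1 control. They were 2837 without the 48 h library of passage 12. At 72 h they fell from 6152 to 4111 without the passage 13 control.

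Levels of CDH1 repressors ranged widely. TCF3, the E2A factor, was at 107 ± 1.66, 97.2 ± 18.1 and 92.1 ± 16.3 CPM and TCF4 at 17.2 ± 0.970, 27.6 ± 9.33 and 17.3 ± 6.04 CPM, and neither passed. SNAI1, ZEB1 and ZEB2 had 24, 60 and 7 counts over all libraries and were not tested. Of the 6 tested factors, 1 was higher at 48 h and 3 at 72 h, against 14.9% and 20.4% of all genes. At both times 0 were lower, against 16.0% and 19.4% (list median 0.56 and 0.22). SNAI2, the SLUG repressor, rose from 205 ± 17.5 to 321 ± 33.8 and 275 ± 33.9 CPM (0.65 ± 0.15 and 0.42 ± 0.15, edgeR adjusted p = 0.00963 and 0.0409), while the mean level of CDH1 stayed above the control. Its 72 h call was lost without any 1 of 7 libraries (0.0513 to 0.152), and held without the 48 h library of passage 8 or the 72 h library of passage 13. It was also lost without a filter on low counts (0.0688) and with the 2 groups alone (0.0553). SNAI3 and TWIST2 passed at 72 h (2.83 ± 0.84 and 1.19 ± 0.41, adjusted p = 0.0241 and 0.0419) from 0.256 ± 0.0978 and 3.38 ± 1.19 CPM. The 3 calls at 72 h were all lost without any 1 control or without the 72 h library of passage 8, in which SNAI3 was at 4.33 CPM against 0.676 and 0.741 in the other 72 h libraries.

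**Figure D4:**
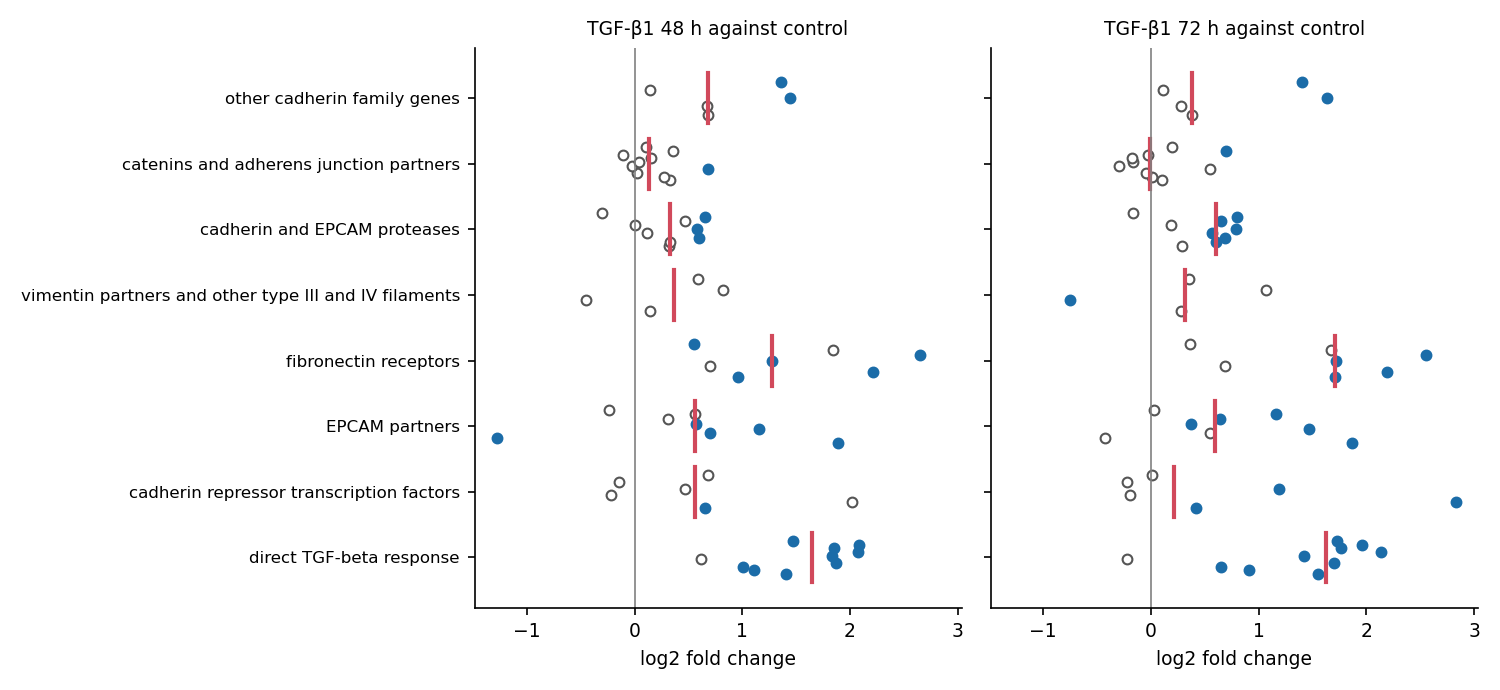
Log2 fold change (x axis) at 48 h and 72 h against control of each tested gene in 8 lists (y axis); filled points passed an adjusted p of 0.05, open points did not, and red bars are list medians. Direct response genes and fibronectin receptors lie mostly to the right, and catenins lie around 0.

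The genes whose log2 CPM over the 9 libraries lay closest to each member differed between members. Among 9256 protein-coding genes with at least 10 CPM, those nearest to FN1 were FILIP1L, CHST2 and TMEM171, at root mean square differences of 0.67, 0.69 and 0.71 (median of all candidates 1.66). FILIP1L was at 17.1, 124 and 140 CPM on average in the 3 groups. Nearest to VIM were MAGED1, SEC24D and HMGA2 (0.17, 0.19 and 0.23, median 0.63), the last a chromatin protein at 71.6, 122 and 147 CPM. Nearest to EPCAM were MAIP1, ZNF468 and ZFX (0.10 to 0.11, median 0.43), to CDH1 KIF13A, NPTN and ATP6V1F (0.11, median 0.40) and to CDH3 OSBPL5, SPTAN1 and VAMP8 (0.09 to 0.10, median 0.37). Nearest to CDH2 were DKK1, TMEM206 and AP1S2, at 0.33, 0.33 and 0.34 (median 0.60). The 9 libraries share 3 passages and 3 groups, so these distances describe likeness of pattern only.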

How the data were processed

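Total RNA of 9 libraries of UPCI-SCC-040 was measured. The deposited value is a raw count of reads per Ensembl gene and library, made by the authors on build hg38. Per the submitters' processing notes they used featureCounts 1.5.0-p1, STAR 2.5.2a, FastQC 0.11.5 and bcl2fastq 2.17.1.14. Annotation release, strand setting and the rule for multiple alignments stand as not given in the sources used here. Symbols and coordinates came from GENCODE release 29, which held 57895 of 58233 identifiers, and the rest held at most 0.0202% of counts.

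Counts were tested with edgeR 4.0.16 in R 4.3.3: TMM scaling, filterByExpr, group as the sole term over all 9 libraries (6 residual degrees of freedom), robust quasi-likelihood fitting and Benjamini-Hochberg adjustment over the 15440 tested genes at 0.05. SEs and 95% intervals were derived from the F statistic. Passage was tested beside group, and its interaction with treatment with 3 residual degrees of freedom. Cadherin ratios, with 1 added to each count, were compared by exact permutation over libraries. Replicates of a group differed beyond sampling noise (chi-square per degree of freedom 8.99 to 159), so all were kept. Scripts were tested on simulated counts.

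The labels give same-numbered libraries 1 passage, which pairs them, and the pairing entered as a block in an alternative fit (4 residual degrees of freedom). Their deviations from group means correlated at -0.019 to 0.49.

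Members and lists were chosen with earlier results of these data known. Named genes are all members, up to 3 genes a list (first those of at least 1 CPM called at 48 h and 72 h, by size, then those of smallest p at 72 h), genes overlapping a member and the 3 nearest patterns. ITGA5, ITGB1, ADAM10, ADAM17, CDH11, CLDN7, CTNNA1, CTNNB1, CTGF, SNAI1, ZEB1, ZEB2, TCF3, TCF4, DES, KRT8, KRT18 and COL1A2 were added after their values were seen. Some genes the rule names are not reported here. Alternatives were DESeq2 1.42.0, other scaling and filters, the block, fits of 2 groups and omission of libraries. The block with 1 library omitted, and omissions in the passage tests, were added after seeing the data.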

Additional observations from a re-analysis of the deposited data

How the results depend on the processing

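The 6 genes gave few calls, so their counts move by single genes. Of 6, 3 were called at each time by DESeq2, 2 with the passage as replicate block and 2 with only the 2 groups compared, 1 at 48 h without a filter on low counts and 0 at 72 h with upper-quartile scaling. Without 1 library 0 to 1 was called at 48 h and 0 to 2 at 72 h. Without 1 passage in all groups 0 to 2 were called at each time, 2 being without passage 8. Of all genes, 31.0% at 48 h and 39.8% at 72 h passed on groups alone, and 33.1% and 41.9% with the block. Shares for the other fits are not given here, so these counts are no result about the 6 genes. Over all genes, 48 h calls ranged from 2631 without the passage 13 control to 6289 without the 72 h library of passage 8. They were 765 at 48 h and 3110 at 72 h without passage 12, and 1375 and 2602 without passage 13. Between 72 h and 48 h DESeq2 called 39 genes and the unfiltered fit 211. For passage 8 against the others DESeq2 called 416, the unfiltered fit 1127 and the filter of 1 CPM 5, and omission of 1 library gave 0 to 747, with 0 to 1 of the 6 genes. For the interaction DESeq2 called 26, the unfiltered fit 166, and omission of 1 treated library gave 0 to 17.

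Values that changed sign were small or had wide intervals, and the cause was not tested. Without 1 library, the log2 fold change of CDH2 at 72 h ranged from -0.87 to 0.08, and it was 0.19 without passage 13 and 0.15 with the replicate block and no passage 13 control. Ratios of CDH2 to CDH1 ranged from -0.78 to 0.25 at 48 h and from -1 to 0.03 over both times. Those of CDH2 to CDH3 ranged from -0.59 to 0.29 and from -0.86 to 0.02. Those of CDH3 to CDH1 ranged from -0.10 to 0.12 at 72 h and from -0.14 to 0.01 over both times. The positive CDH2 ratios came without the passage 13 control, except 0.07 for CDH2 to CDH3 at 48 h without the 48 h library of passage 13. Within passages, exact sign flips on the ratios cannot go below p = 0.25.

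Between 72 h and 48 h, omission of 1 library moved FN1 from -0.74 to 1.25, CDH3 from -0.11 to 0.15 and EPCAM from -0.12 to 0.20. FN1 was 0.26 with the replicate block and 0.52 without passage 8. EPCAM was -0.01 with DESeq2 size factors, in DESeq2 and with 2 groups, -0.02 without passage 12 and -0.05 without passage 13. VIM was -0.08 without passage 12, and CDH1 and CDH3 were 0.01 and 0.06 without passage 13. CDH1 ranged from -0.15 to 0.07 in the passage contrast and from -0.09 to 0.15 in the interaction (-0.01 in DESeq2), and CDH2 from -0.52 to 0.71 in the interaction. At 48 h VCL ranged from -0.13 to 0.06 (0.03 with upper-quartile scaling, 0.02 with 2 groups and without passage 12) and DKK1 from -0.26 to 0.06 (0.01 without passage 13), and TMEM206 was -0.04 without passage 12. At 72 h CDH24 ranged from -0.05 to 0.25 (-0.06 without passage 12), CTNNB1 from -0.05 to 0.11 (-0.08 without passage 12, -0.01 without passage 13), CDH11 from -0.13 to 1.15 (-0.05 without passage 13) and NEFL from -0.13 to 1.46 (-0.18 without passage 8).

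Depth was lowest for CDH2, with 111 to 442 counts per library. Among the named genes, the replicate block added calls as higher for FN1 and COL1A2 at both times, CHST2 at 48 h and MAGED1 and VIM-AS1 at 72 h, added EPCAM as lower at 48 h and lost FHL2 at 72 h.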
